A study of Homo sapiens with 12 samples.

Results

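The palmitate response of K562 cells with a knockdown of RNF213 (RNF213kd) was read as the ratio of 1 palmitate-treated library to 1 untreated library, chosen by their labels. These are 2 of the 12 labelled samples of the series. K562 is an established human leukemia cell line with red cell features. The 4 groups compared were RNF213kd cells given 0.2 mM palmitate coupled to bovine serum albumin, RNF213kd cells without fatty acid, WT cells given the same palmitate, and WT cells without fatty acid. The labels give an exposure of 20 h, whereas the legend of the deposited table gives 16 h. RNF213kd and WT of experiment 3 share 1 table and gave 1 library per group, each made from pooled RNA of 3 biological replicates, so no spread within a group can be seen. The labelled WT libraries of experiments 1 and 2, which gave 1 further palmitate ratio each, served to show how far the ratio varies between experiments. How RNF213 was knocked down, in how many lines, and whether untreated cells received albumin alone are not given in the sources used here.

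RNF213 encodes a very large ubiquitin ligase with AAA ATPase domains, found on lipid droplets and known as a susceptibility gene for moyamoya disease. Palmitate is a saturated fatty acid that cells activate to acyl-CoA and build into membrane and storage lipids; in excess it disturbs the endoplasmic reticulum (ER) membrane. ER stress is sensed by IRE1, ATF6 and PERK, which induce chaperones and degradation factors, and PERK also feeds the integrated stress response, in which phosphorylated eIF2 alpha lets ATF4 and DDIT3 activate genes of amino acid supply and cell death. NF-kappaB and AP-1 factors, in turn, induce chemokines and immediate early genes.

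RNF213 itself stood at 1.54 FPKM (fragments per kilobase of transcript, scaled to the mapped fragments of the library) in palmitate-treated and 1.39 FPKM in untreated RNF213kd cells, against 3.08 FPKM in palmitate-treated and 1.96 FPKM in untreated WT cells of experiment 3. The knockdown libraries thus held 50.1% of the WT level with palmitate and 71.1% without. The untreated WT library of experiment 2, at 1.49 FPKM, lay between the knockdown libraries, while the other WT libraries of experiments 1 and 2, with or without fatty acid, held 2.52 to 6.26 FPKM. Under palmitate the log2 ratio of RNF213 was 0.09 in RNF213kd cells, and 0.36, 1.21 and 0.46 in WT cells of experiments 1, 2 and 3. All ratios here are log2 ratios of palmitate to untreated taken on FPKM + 1, a scale that understates the change of genes near 0.

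Summed FPKM in the 11 libraries with values was 612355 to 821188, with 10495 to 11108 genes at 1 FPKM or more; read depth is unknown. Of the 4 libraries of experiment 3, the erythroid markers of K562 summed to 10215 FPKM in palmitate-treated and 12091 FPKM in untreated RNF213kd cells, against 5167 FPKM in palmitate-treated and 9978 FPKM in untreated WT cells. All 5 B cell and all 5 endothelial markers were under 1 FPKM in these libraries. Single markers of other lists were present in every library: LYZ of the monocyte list reached 43.98 FPKM and CD3D of the T cell list 22.03 FPKM, with the other 4 of 5 in each list under 1 FPKM. The epithelial genes KRT8, KRT18 and EPCAM were also present, KRT8 up to 276 FPKM, with KRT5 at 0 throughout. In pooled bulk RNA, fewer cells of a kind and less RNA per cell cannot be told apart.

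Palmitate ratios in RNF213kd cells ran parallel to those in WT cells, over a narrower range. Across the 10880 tested genes (mean of at least 1 FPKM) the ratios had a standard deviation of 0.42 in RNF213kd cells, against 0.77, 0.99 and 0.63 in WT cells of experiments 1, 2 and 3. In RNF213kd cells 273 genes (2.51%) were at least 2-fold higher with palmitate and 35 (0.322%) at least 2-fold lower. In WT cells these counts were 727 (6.68%) and 1220 (11.2%) in experiment 1, 1349 (12.4%) and 1215 (11.2%) in experiment 2, and 688 (6.32%) and 205 (1.88%) in experiment 3. Across genes, which are not independent replicates, the RNF213kd ratio correlated with the WT ratio of experiment 3 at 0.82, of experiment 2 at 0.81 and of experiment 1 at 0.74, while the WT ratios correlated with each other at 0.53 to 0.89.

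To compare the size of the response on genes that neither ratio had selected, genes at least 2-fold higher in WT cells of both experiments 1 and 2 were read in experiment 3. Of 523 such genes, 522 had a positive ratio in RNF213kd cells. Their median ratio was 0.91 in RNF213kd cells and 1.33 in WT cells of the same table. At least 2-fold higher were 225 of them in RNF213kd cells and 364 in WT cells, and the RNF213kd ratio was the smaller for 484 (92.5%). Over all tested genes the RNF213kd ratio lay below that of WT in 50.3%. Of 460 genes at least 2-fold lower in WT cells of experiments 1 and 2, 459 had a negative ratio in RNF213kd cells, with a median of -0.56 in RNF213kd cells and -0.67 in WT cells of experiment 3. Here 27 genes in RNF213kd cells and 83 in WT cells were at least 2-fold lower, and the RNF213kd ratio was the smaller in size for 290 (63.0%). With the trend of the ratios over GC content removed, it was the smaller in size for 396 of 451 of these genes. Their medians were then -0.42 in RNF213kd and -0.72 in WT cells. For the genes that were higher, removal gave 492 of 509 and medians of 0.91 and 1.43.

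The other WT experiments gave the same order. Read against experiment 1 on genes higher in experiments 2 and 3, the median of 643 genes was 0.90 in RNF213kd cells and 1.20 in WT cells, and the RNF213kd ratio was smaller for 399. Read against experiment 2, 373 genes had a median of 1.09 in RNF213kd cells and 2.30 in WT cells, and it was smaller for 363. With 1 library per side, a difference between genotypes and one between cultures cannot be told apart.

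**Figure D1:**
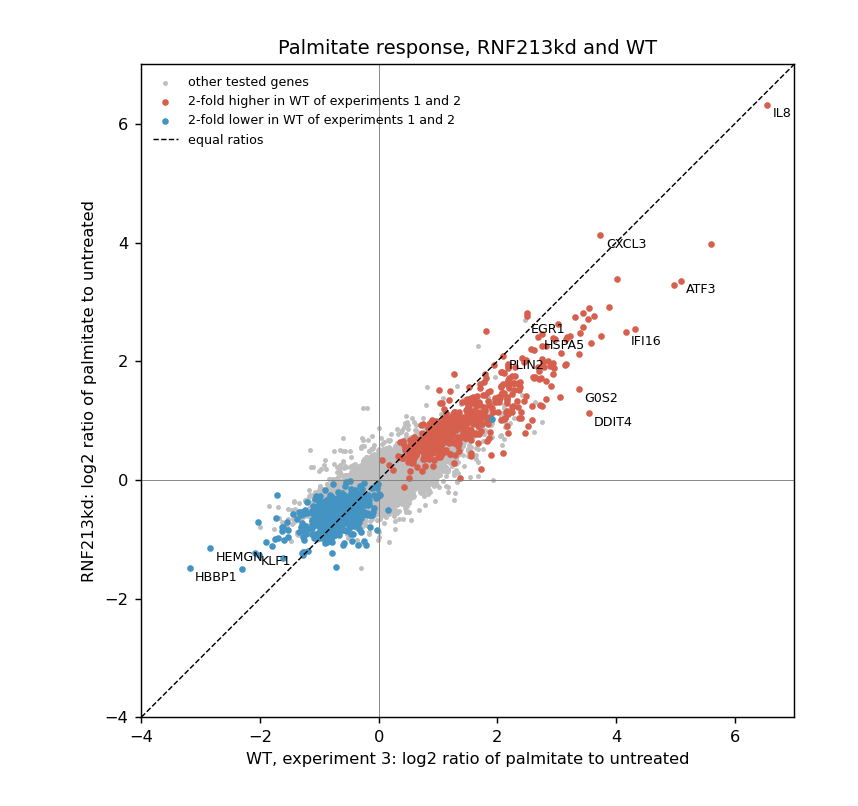
Log2 ratio of palmitate to untreated for 10880 genes, RNF213kd (vertical) against WT of experiment 3 (horizontal), 1 point per gene. Genes at least 2-fold higher in WT of experiments 1 and 2 (red, 523) lie mostly below the dashed line of equal ratios; those at least 2-fold lower (blue, 460) lie mostly above it.

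Fitted across all tested genes with limma, 9 genes (0.0827%) rose with palmitate in RNF213kd cells and 0 (0.0%) fell at an adjusted p under 0.05; 334 genes (3.07%) had an unadjusted p under 0.05, 294 of them higher and 40 lower. The fit takes the spread from the WT ratios of 3 experiments, so the lone RNF213kd ratio is assumed to vary as they do. The largest rise was that of IL8 (now CXCL8), a chemokine that attracts neutrophils, with 155 FPKM in palmitate-treated and 0.955 FPKM in untreated RNF213kd cells, against 186 FPKM in palmitate-treated and 0.991 FPKM in untreated WT cells. Its ratio was 6.32 (95% interval 4.61 to 8.03, adjusted p = 0.0137). CXCL3, a chemokine of the same class, stood at 55.9 FPKM in palmitate-treated and 2.27 FPKM in untreated RNF213kd cells, against 45.8 and 2.51 FPKM in palmitate-treated and untreated WT cells. Its ratio was 4.12 (3.21 to 5.03, limma adjusted p = 0.00280).

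Of the other 7 genes that rose, 3 belong to stress lists, 1 each to the NRF2 targets, the integrated stress response and the ER chaperones. OSGIN1, an oxidative stress gene induced by NRF2, had 19.4 FPKM with palmitate and 0.937 FPKM without in RNF213kd cells (ratio 3.39), against 30.5 and 0.945 FPKM in WT cells. INHBE, the inhibin beta E chain, had 28.2 FPKM with palmitate and 2.00 FPKM without in RNF213kd cells (ratio 3.28), against 57.1 and 0.849 FPKM in WT cells. HSPA5, the main ER chaperone, had 619 FPKM with palmitate and 115 FPKM without in RNF213kd cells (ratio 2.41), against 855 and 132 FPKM in WT cells. In each of these the palmitate-treated RNF213kd level stayed under that of WT. IL20RB, a chain of receptors for interleukins of the IL-10 family, rose by 2.91 and SAT1, which acetylates spermidine and spermine, by 2.74. C4orf34 (now SMIM14) rose by 2.58 and LOC731779 by 2.45. The limma adjusted p of these 7 genes was 0.0433 for OSGIN1 and 0.0484 for each of the rest.

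The count of calls depended on the settings. It was 0 without the WT ratio of experiment 3, 57 without that of experiment 2 and 19 without that of experiment 1, and it was 0 with the GC trend removed. The count at an unadjusted p under 0.05 was 189 without experiment 3, 327 without experiment 2 and 682 without experiment 1. SPRR2D, a small proline-rich protein of the cornified envelope (ratio 3.97), ATF3, a transcription factor of the stress response (3.36), and KLF6, a zinc finger factor (2.90), were as large but did not pass the test (limma adjusted p = 0.0829, 0.105 and 0.0803). No gene passed the limma test of the difference between the RNF213kd ratio and the WT ratio of experiment 3; 18 (0.165%) had an unadjusted p under 0.05, and 138 without experiment 1, 39 without experiment 2, 81 without experiment 3 and 532 without the filter on expression.

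**Figure D2:**
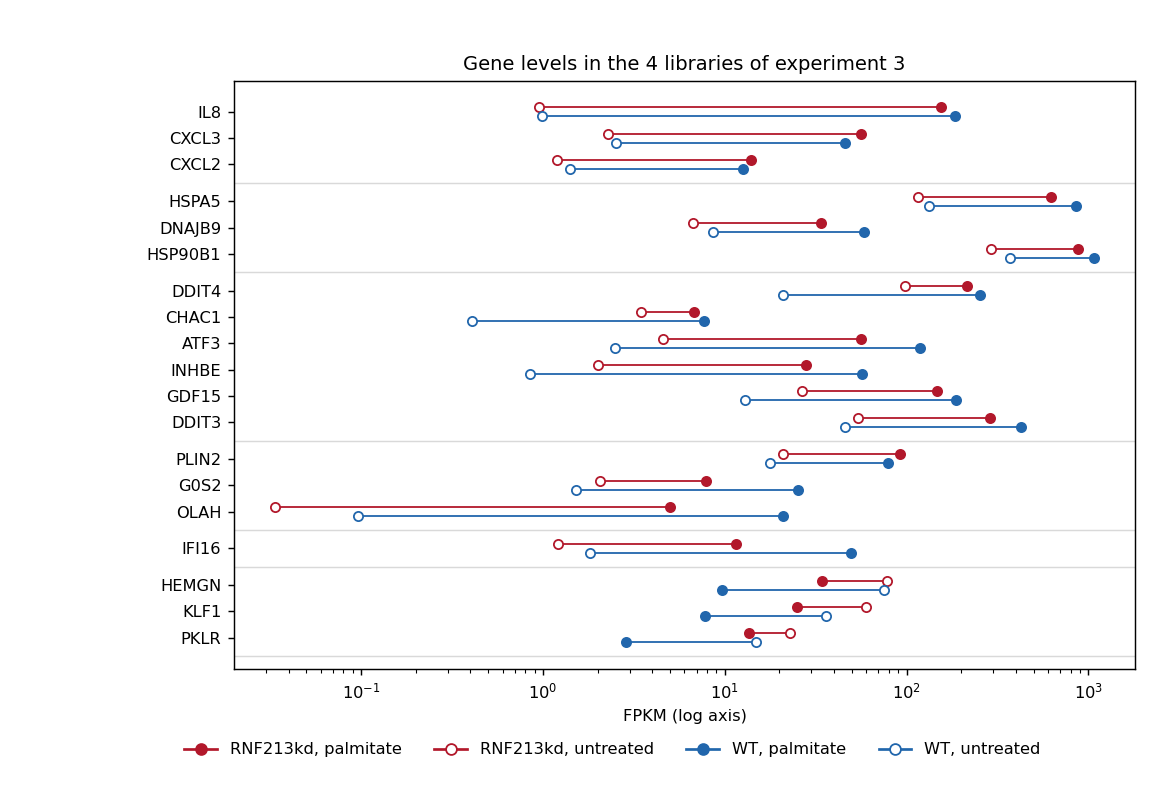
FPKM (log axis) of 19 genes in the 4 libraries of experiment 3, with RNF213kd in red above WT in blue, filled circles for palmitate and open circles for untreated; each circle is 1 library. IL8 and CXCL3 span about the same range in both genotypes, DDIT4 and CHAC1 start higher in untreated RNF213kd cells, and IFI16, G0S2 and OLAH end lower in palmitate-treated RNF213kd cells.

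Among 16 tested NF-kappaB and inflammatory genes the chemokines had ratios in RNF213kd cells near those in WT cells. The list had 2 called rises, IL8 and CXCL3, and 9 members at least 2-fold higher in RNF213kd cells, against 10 in WT cells of experiment 3. Its median was 1.18 in RNF213kd cells and 1.45 in WT cells of experiment 3, beside -0.03 in both over all tested genes. CXCL2 had 14.0 FPKM with palmitate and 1.20 FPKM without in RNF213kd cells, against 12.6 and 1.41 FPKM in WT cells, giving ratios of 2.77 and 2.50. The interval of the difference between RNF213kd and WT was -2.64 to 2.18 for IL8 and -0.90 to 1.66 for CXCL3 (limma adjusted p = 1.00 for both), so neither a smaller nor a larger response can be told from these libraries. Other members had smaller ratios in RNF213kd cells: IER3, an early stress gene, stood at 2.13 in RNF213kd cells and 3.38 in WT cells, and RELB, an NF-kappaB subunit, at 1.73 and 2.60. Untested members, under 1 FPKM on average, were CXCL1, TNF, BIRC3, CCL20 and IL1B.

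The promoters of the 2 chemokines with the largest ratios are shown because each holds the letters of an NF-kappaB site. They are the 250 bases before the start of the gene from RefSeq (GRCh38.p14, not the hg19 of the expression files), 5′ to 3′ on the strand of the gene, for CXCL8 chr4:73740319-73740568 on the plus strand and for CXCL3 chr4:74038690-74038939 on the minus strand. Capitals mark GGNNTTTCC, searched on both strands.
CXCL8 (IL8): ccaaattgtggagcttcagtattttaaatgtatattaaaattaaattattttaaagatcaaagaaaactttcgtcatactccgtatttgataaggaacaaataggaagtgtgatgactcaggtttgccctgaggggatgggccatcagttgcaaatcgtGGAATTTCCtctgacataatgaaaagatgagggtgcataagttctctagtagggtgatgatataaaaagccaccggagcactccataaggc
CXCL3: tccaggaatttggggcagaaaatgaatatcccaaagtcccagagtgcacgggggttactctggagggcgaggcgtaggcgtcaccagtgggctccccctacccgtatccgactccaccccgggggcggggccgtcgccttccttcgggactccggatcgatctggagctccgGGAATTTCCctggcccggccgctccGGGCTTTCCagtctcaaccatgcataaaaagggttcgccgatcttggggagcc
CXCL8 holds 1 match, which begins 91 bases before the start, and CXCL3 holds 2, which begin 78 and 53 bases before it. A match is held by 5.48% of the 35116 promoters of the collection and by 7.95% of the 8753 tested genes with an entry. Of the tested list members with an entry 10 of 12 hold it. The list was made of NF-kappaB and inflammatory genes, so this share is not an independent result. The median ratio of the 696 tested genes with a match was -0.01 in RNF213kd cells. Of these, 28 were at least 2-fold higher in RNF213kd cells, beside 273 of all 10880 tested genes, so most genes with the letters did not rise 2-fold.

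ER chaperones and folding enzymes had positive ratios in RNF213kd cells in all 25 tested members, beside 4977 of all 10880 tested genes. In 21 the ratio was smaller than in WT cells of experiment 3, beside 50.3% of all tested genes. Of 25 tested members 1, HSPA5, rose in the limma test. At least 2-fold higher were 10 in RNF213kd cells and 16 in WT cells of experiment 3. The median ratio was 0.92 in RNF213kd cells and 1.16, 1.43 and 1.23 in WT cells of experiments 1, 2 and 3. For 18 of 25 members the RNF213kd ratio lay below all 3 WT ratios, beside 17.4% of all tested genes. With palmitate all 25 were lower in RNF213kd than in WT cells of experiment 3, beside 4811 of all 10880 tested genes. The median log2 difference was -0.37, whereas the untreated libraries differed by a median of -0.10.

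DNAJB9, a co-chaperone of HSPA5 that restrains IRE1, had 34.0 FPKM with palmitate and 6.70 FPKM without in RNF213kd cells (ratio 2.18), against 58.3 and 8.62 FPKM in WT cells (2.62). MANF, a secreted ER stress factor, had a ratio of 1.62 in RNF213kd and 2.10 in WT cells. HYOU1, a nucleotide exchange factor for HSPA5, had 1.40 and 2.17 in RNF213kd and WT cells. HSP90B1 was the exception among the most responsive members, at 873 FPKM with palmitate and 293 FPKM without in RNF213kd cells (ratio 1.57), against 1073 and 373 FPKM in WT cells (1.52). The difference for HSPA5 was -0.27 (95% interval -1.45 to 0.91), which covers no difference as well as one larger than that seen for the list.

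The HSPA5 promoter is shown as the template of the list: it holds the ER stress response element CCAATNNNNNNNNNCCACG, here in capitals, in its exact letters. The window is the 250 bases before the start on the minus strand, chr9:125241344-125241593 of GRCh38.p14 from RefSeq.
HSPA5: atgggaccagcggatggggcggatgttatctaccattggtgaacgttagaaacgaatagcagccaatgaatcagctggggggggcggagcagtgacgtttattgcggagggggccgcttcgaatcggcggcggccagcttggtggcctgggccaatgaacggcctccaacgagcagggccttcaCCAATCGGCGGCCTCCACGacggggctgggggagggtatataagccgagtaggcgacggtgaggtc
The match begins 66 bases before the start and contains the letters of a CCAAT box. The element is held by 26 of all promoters (0.0740%) on either strand and by 15 of the 8753 tested genes with an entry (0.171%). Among the 23 list members with an entry 7 do, namely HSPA5, HSP90B1, CALR, CANX, PDIA6, ERO1LB and CRELD2. Their median ratio was 1.03 in RNF213kd cells and 1.52 in WT cells of experiment 3. The list was made of ER chaperones and folding enzymes, so the share that holds the element is not an independent result.

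Genes that clear misfolded ER proteins or carry cargo out of the ER followed the chaperones at a lower level. Their median was 0.65 in RNF213kd cells and 0.84 in WT cells of experiment 3 over 41 tested members, of which 7 in RNF213kd and 17 in WT cells were at least 2-fold higher and 0 passed the limma test. HERPUD1, which assembles the degradation complex, had 59.5 FPKM with palmitate and 14.6 FPKM without in RNF213kd cells (ratio 1.96), against 96.9 and 9.96 FPKM in WT cells (3.16). SEC24D, a coat protein of vesicles leaving the ER, had ratios of 1.90 and 2.79, and SEL1L, the partner of the ubiquitin ligase SYVN1, of 1.47 and 2.08 in RNF213kd and WT cells. Of the ER stress sensors, ERN1 (IRE1) stood at 1.15 in RNF213kd and 1.67 in WT cells and EIF2AK3 (PERK) at 1.02 and 1.42. XBP1, the factor spliced by IRE1, stood at 0.75 in RNF213kd and 0.95 in WT cells.

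Genes of the integrated stress response had the largest median difference between RNF213kd and WT of experiment 3 among the 30 lists, at -0.75. All 26 tested members had a smaller ratio in RNF213kd cells than in WT cells of experiment 3, beside 50.3% of all tested genes. Of the 26 members 17 lay below all 3 WT ratios, beside 17.4% of all tested genes. The median was 1.37 in RNF213kd cells and 1.80, 2.81 and 2.44 in WT cells of experiments 1, 2 and 3. One member, INHBE, rose in the limma test, and 16 were at least 2-fold higher in RNF213kd cells against 22 in WT cells. FGF21, VLDLR, JDP2 and SLFN5 were too low to be tested.

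The gap came from both ends. Without fatty acid 24 of the 26 members were higher in RNF213kd than in WT cells, by a median log2 difference of 0.34, and with palmitate 25 of the 26 were lower, by a median of -0.35. Of all 10880 tested genes 6013 were higher untreated and 4811 lower with palmitate in RNF213kd cells. The untreated difference moved with GC content over all tested genes (Spearman rho 0.64), and the palmitate difference did not (-0.02). With the GC trend removed the medians were 0.18 for the untreated difference, with 22 of 26 members higher, and -0.37 for the palmitate difference, with 25 of 26 lower. The median ratio after that removal was 1.50 in RNF213kd cells and 2.47 in WT cells of experiment 3.

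DDIT4, which restrains mTORC1, differed most of all tested genes with at least 5 FPKM. It had 216 FPKM with palmitate and 98.4 FPKM without in RNF213kd cells, against 253 and 20.9 FPKM in WT cells. Its ratio was 1.13 in RNF213kd and 3.54 in WT cells, a difference of -2.41 (95% interval -4.40 to -0.42, limma adjusted p = 1.00). RNF213kd minus WT was 2.19 untreated and -0.23 with palmitate. With 1 library each, it cannot be told which of the untreated libraries stands apart. CHAC1, which breaks down glutathione, had the same form, with 6.82 FPKM with palmitate and 3.47 FPKM without in RNF213kd cells, against 7.66 and 0.410 FPKM in WT cells. GDF15, a stress hormone, had 148 and 26.6 FPKM in palmitate-treated and untreated RNF213kd cells, against 187 and 13.0 FPKM in WT cells. Removal of the GC trend left an untreated difference of 1.95 for DDIT4, 1.39 for CHAC1 and 0.67 for GDF15.

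ATF3 and INHBE differed at both ends. ATF3 had 56.3 FPKM with palmitate and 4.60 FPKM without in RNF213kd cells, against 118 and 2.50 FPKM in WT cells. DDIT3 (CHOP), the death-promoting factor of the pathway, had 289 FPKM with palmitate and 53.9 FPKM without in RNF213kd cells, against 426 and 46.2 FPKM in WT cells. ATF4, which is controlled mainly in translation, had 258 and 156 FPKM in palmitate-treated and untreated RNF213kd cells, against 345 and 122 FPKM in WT cells. NUPR1, a small stress-induced chromatin protein, stood at a ratio of 2.48 in RNF213kd and 3.39 in WT cells without a raised untreated level. ASNS, asparagine synthetase, was near WT with palmitate, at 264 FPKM in RNF213kd and 283 FPKM in WT cells, with 64.6 and 49.6 FPKM untreated.

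The CHAC1 promoter is shown because its gene has among the largest differences and carries the C/EBP-ATF response element TGATGNAA, a target of ATF4 and DDIT3. The window is the 250 bases before the start on the plus strand, chr15:40953221-40953470 of GRCh38.p14 from RefSeq, with the match, which lies on the opposite strand, in capitals.
CHAC1: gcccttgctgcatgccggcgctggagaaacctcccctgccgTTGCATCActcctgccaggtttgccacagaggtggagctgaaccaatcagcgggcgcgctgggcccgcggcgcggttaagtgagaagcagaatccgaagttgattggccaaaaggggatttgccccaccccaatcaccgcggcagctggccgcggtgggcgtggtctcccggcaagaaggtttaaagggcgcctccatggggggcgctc
The match begins 209 bases before the start. It occurs in 3.14% of all promoters on either strand and in 2.03% of the 8753 tested genes with an entry. Of the 21 list members with an entry 4 hold it, ATF3, ASNS, CHAC1 and CEBPG. The list was made of genes of the integrated stress response, so this share is not an independent result. The median ratio of the 178 tested genes that hold a match was 0.04 in RNF213kd and 0.04 in WT cells of experiment 3. At least 2-fold higher were 14 of them in RNF213kd and 22 in WT cells, beside 273 and 688 of all 10880 tested genes. None of the matches in the 4 promoters printed overlapped a match of the other motifs searched.

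Amino acid importers, many of them targets of ATF4, also had smaller ratios than in WT cells of experiment 3. SLC7A11, the cystine carrier, had a ratio of 2.04 in RNF213kd and 2.75 in WT cells, and its partner SLC3A2 1.84 and 2.71. SLC6A9, a glycine carrier, had 0.95 and 2.22, while SLC38A2, a carrier of small neutral amino acids, had 1.11 and 1.32. The list median was 0.65 in RNF213kd cells and 0.24, 0.98 and 1.23 in WT cells of experiments 1, 2 and 3, so it lay above that of experiment 1. For 3 of 11 members the RNF213kd ratio lay below all 3 WT ratios, beside 17.4% of all tested genes. Of 11 tested transporters 10 had a smaller ratio in RNF213kd cells than in WT cells of experiment 3, beside 50.3% of all tested genes. The limma test called 0 of them. Aminoacyl-tRNA synthetases showed no such shift, with 9 of 20 below and 11 above WT, although the most responsive, WARS, stood at 1.63 in RNF213kd and 2.16 in WT cells.

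**Figure D3:**
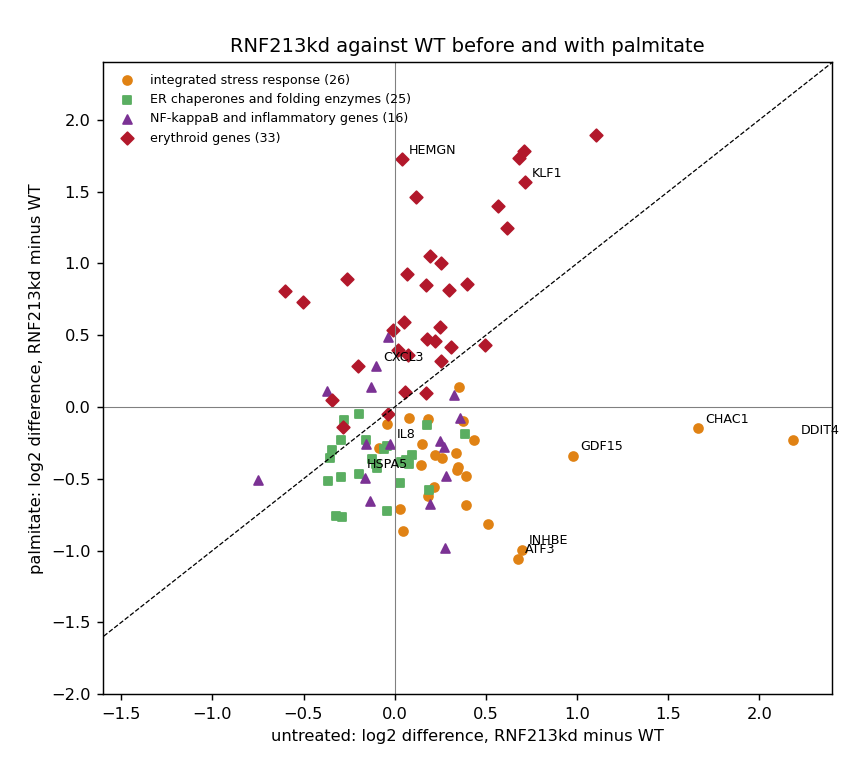
Log2 difference of RNF213kd minus WT (experiment 3, FPKM + 1) with palmitate (vertical) against untreated (horizontal), 1 point per gene of 4 lists, with the line of equal differences dashed; points below the line have a smaller ratio in RNF213kd cells. Genes of the integrated stress response (orange) lie below and to the right, ER chaperones (green) below 0 with palmitate, and erythroid genes (red) mostly above the line.

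Targets of NRF2, the regulator of antioxidant genes, had medians of 0.78 in RNF213kd and 1.15 in WT cells of experiment 3. Of 19 tested 16 had the smaller ratio in RNF213kd cells, beside 50.3% of all tested genes, and OSGIN1 rose in the limma test. FTH1, the ferritin heavy chain, had 0.86 in RNF213kd and 1.73 in WT cells. Among the 3 with a larger ratio, GCLM, a subunit of the enzyme that starts glutathione synthesis, had 42.7 FPKM with palmitate and 16.2 FPKM without in RNF213kd cells, against 55.3 and 23.8 FPKM in WT cells, giving ratios of 1.35 and 1.18. ME1, malic enzyme, had 1.20 in RNF213kd and 1.11 in WT cells.

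Lysosome and autophagy genes had a median of 0.20 in RNF213kd cells, against 0.66 in WT cells of experiment 3. Of 29 tested members 24 had the smaller ratio in RNF213kd cells, beside 50.3% of all tested genes. With palmitate 26 of the 29 were lower in RNF213kd than in WT cells, beside 4811 of all 10880 tested genes. SQSTM1, the autophagy receptor p62, stood at 2.39 in RNF213kd and 2.94 in WT cells. WIPI1, which marks forming autophagosomes, stood at 1.93 and 3.13 in RNF213kd and WT cells, and CTSL1, cathepsin L, at 1.97 and 2.94. CTSD, cathepsin D, had 32.1 FPKM with palmitate and 30.2 FPKM without in RNF213kd cells, against 56.5 and 22.7 FPKM in WT cells. No gene of the list passed the limma test in either direction.

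Immediate early genes ranged from ratios near those of WT to smaller ones. EGR1 had 42.1 FPKM with palmitate and 5.65 FPKM without in RNF213kd cells (ratio 2.70), against 39.98 and 6.41 FPKM in WT cells (2.47). NR4A1, an orphan nuclear receptor, stood at 1.93 in RNF213kd and 1.94 in WT cells. JUN, of the AP-1 factor, stood at 2.38 and 3.15, and DUSP5, a phosphatase of ERK, at 1.31 and 2.15 in RNF213kd and WT cells. Over 17 tested members the median was 0.83 in RNF213kd cells and 0.68, 2.64 and 1.03 in WT cells of experiments 1, 2 and 3. Against WT of experiment 3, 16 were smaller in RNF213kd cells, beside 50.3% of all tested genes, but only 10 of 17 with the GC trend removed. Below all 3 WT ratios lay 3 of 17, beside 17.4% of all tested genes.

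Of 14 tested apoptosis regulators 10 had a smaller ratio in RNF213kd than in WT cells of experiment 3, with medians of 0.22 and 0.33 that turned to 0.29 and 0.26 with the GC trend removed. Of 14 tested p53 targets 8 had the smaller ratio in RNF213kd cells, with medians of 0.27 and 0.24, beside 50.3% of all tested genes. TNFRSF10B, the death receptor DR5, had 34.9 FPKM with palmitate and 8.52 FPKM without in RNF213kd cells (ratio 1.92), against 47.7 and 6.14 FPKM in WT cells (2.77). BBC3 (PUMA) stood at 1.04 in RNF213kd and 2.37 in WT cells and PMAIP1 (NOXA) at 1.34 and 1.84. MCL1, their anti-apoptotic target, stood at 0.82 in RNF213kd and 0.83 in WT cells. Of the p53 targets CDKN1A, the cell cycle inhibitor p21, had 13.5 FPKM with palmitate and 1.13 FPKM without in RNF213kd cells (2.77), against 28.5 and 1.38 FPKM in WT cells (3.63). The sestrin SESN2 stood at 1.58 in RNF213kd and 2.90 in WT cells. None of the tested genes of these lists passed the limma test.

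Lipid genes differed among themselves. PLIN2, the droplet coat protein stabilised by stored fat, had 91.8 FPKM with palmitate and 20.8 FPKM without in RNF213kd cells, against 79.5 and 17.7 FPKM in WT cells. Its ratio was 2.09 in RNF213kd and 2.10 in WT cells, a difference of -0.02 (95% interval -1.34 to 1.31). G0S2, an inhibitor of the droplet lipase ATGL, had 7.89 FPKM with palmitate and 2.07 FPKM without in RNF213kd cells, against 25.3 and 1.53 FPKM in WT cells. Its difference was -1.84 (-3.48 to -0.21, limma adjusted p = 1.00). OLAH, a thioesterase that releases medium-chain fatty acids, had 5.03 FPKM with palmitate in RNF213kd cells, against 20.9 FPKM in WT cells, with 0.0336 FPKM in untreated RNF213kd and 0.0968 FPKM in untreated WT cells.

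AGPAT9 (now GPAT3), a glycerol-3-phosphate acyltransferase, had 15.5 FPKM with palmitate and 5.18 FPKM without in RNF213kd cells, against 34.2 and 7.53 FPKM in WT cells. Its ratio of 1.42 was below the WT ratios of 3.11, 4.16 and 2.05. It stands against its list: 21 of 27 tested glycerolipid synthesis genes had a ratio below 0 in RNF213kd cells, beside 5902 of all 10880 tested genes. The list medians were -0.16 in RNF213kd and -0.09 in WT cells of experiment 3. ACSL1, which activates long-chain fatty acids, stood at 0.85 in RNF213kd and 1.02 in WT cells, and LPIN1, a phosphatidate phosphatase of the glycerolipid list, at 0.73 and 0.78. FABP5, a fatty acid binding protein, was lower with palmitate in both, with ratios of -0.83 and -1.76 in RNF213kd and WT cells. CPT1A, FASN and SCD differed little with palmitate in RNF213kd cells, at 0.20, -0.19 and 0.30, and the small FASN ratio turned to 0.037 once the GC trend was removed. STARD4, which carries cholesterol and is driven by SREBP2, stood at 1.50 in RNF213kd and 1.20 in WT cells, in a list of 27 cholesterol genes with medians of 0.29 and 0.37. Among 19 sphingolipid genes the medians were -0.01 in RNF213kd and -0.03 in WT cells. No lipid gene passed the limma test.

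Erythroid genes were lower with palmitate in RNF213kd cells, and nearer to 0 than in WT cells; no gene passed the limma test. The median of 33 tested genes was -0.35 in RNF213kd cells, against -0.86, -1.88 and -0.93 in WT cells of experiments 1, 2 and 3. For 24 of them the RNF213kd ratio lay above all 3 WT ratios, beside 17.2% of all tested genes. At least 2-fold lower were 4 in RNF213kd cells and 14 in WT cells of experiment 3. With palmitate 2 of 33 were lower in RNF213kd than in WT cells, beside 4811 of all 10880 tested genes, and the median log2 difference was 0.73. Untreated, 25 of 33 were higher in RNF213kd cells, beside 6013 of all tested genes, with a median of 0.17. With the GC trend removed the palmitate and untreated differences were 0.68 and 0.06, and the median ratio was -0.23 in RNF213kd and -0.89 in WT cells of experiment 3.

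HEMGN, a nuclear regulator of red cell maturation, had 34.4 FPKM with palmitate and 77.6 FPKM without in RNF213kd cells, against 9.71 and 75.5 FPKM in WT cells. KLF1, the factor that drives globin transcription, had 25.1 and 59.96 FPKM in palmitate-treated and untreated RNF213kd cells, against 7.82 and 36.2 FPKM in WT cells. NFE2, which acts on the globin locus control region, stood at -1.04 in RNF213kd and -1.90 in WT cells. The fetal globin HBG1 had 3653 FPKM with palmitate and 4635 FPKM without in RNF213kd cells, against 2028 and 4111 FPKM in WT cells; its near-identical copy HBG2 shares reads with it. GYPB, glycophorin B, which has near-identical relatives with which reads may be shared, had 63.1 and 44.3 FPKM in palmitate-treated and untreated RNF213kd cells, against 33.5 and 53.3 FPKM in WT cells. The letters GATAAG, of the site bound by GATA1, are in 5.65% of all promoters and in 5.13% of the 8753 tested genes with an entry. They are in 7 of the 16 tested erythroid genes with an entry, among them KLF1, TAL1 and EPOR. The list was made of erythroid genes, so this share is not an independent result.

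Genes of DNA replication and the G1/S transition showed the same narrowing. Their median was -0.38 in RNF213kd cells and -0.78 in WT cells of experiment 3 over 33 tested genes, of which 0 in RNF213kd and 7 in WT cells were at least 2-fold lower. With palmitate 1 of the 33 was lower in RNF213kd than in WT cells, beside 4811 of all 10880 tested genes. PCNA, the sliding clamp of the polymerase, had 81.3 FPKM with palmitate and 134 FPKM without in RNF213kd cells, against 60.1 and 164 FPKM in WT cells. CCNE1, cyclin E1, stood at -0.69 in RNF213kd and -1.12 in WT cells, and UNG, which removes uracil from DNA, at -0.68 and -1.13. Mitosis genes had medians of -0.02 in RNF213kd and -0.18 in WT cells. TOP2A had 98.7 FPKM with palmitate and 103 FPKM without in RNF213kd cells, against 67.1 and 123 FPKM in WT cells. The limma test called 0 of these genes.

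Heat shock proteins and cytosolic chaperones had a median of -0.22 in RNF213kd and -0.67 in WT cells of experiment 3, and 0 of 14 tested genes passed the limma test. HSPE1, the mitochondrial co-chaperonin in the same list, had 415 FPKM with palmitate and 635 FPKM without in RNF213kd cells, against 303 and 722 FPKM in WT cells. HSPA8, the constitutive HSC70, had 1273 and 1166 FPKM in palmitate-treated and untreated RNF213kd cells, against 922 and 1449 FPKM in WT cells.

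Of 35 interferon-stimulated genes listed 17 were high enough to be tested, and their median was 0.20 in RNF213kd and 0.30 in WT cells of experiment 3. IFI16, a sensor of DNA, stood out: it had 11.5 FPKM with palmitate and 1.22 FPKM without in RNF213kd cells, against 49.4 and 1.81 FPKM in WT cells. Its ratio of 2.49 was below the WT ratios of 3.24, 5.17 and 4.16, and the difference from experiment 3 was -1.67 (95% interval -3.35 to 0.01, limma adjusted p = 1.00). Among 15 genes of a list linked to RNF213, which includes ubiquitin ligases and enzymes, the median was -0.07 in RNF213kd and -0.06 in WT cells. RBCK1 (HOIL-1) of the linear ubiquitin ligase stood at 0.70 and 1.48, and FILIP1L at 1.32 and 1.65 in RNF213kd and WT cells.

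For large housekeeping groups, the medians in RNF213kd and WT cells of experiment 3 were 0.22 and 0.19 for 41 ribosomal protein genes, -0.02 and -0.12 for 33 proteasome genes and -0.23 and -0.23 for 24 glycolysis genes. Oxidative phosphorylation genes stood at -0.16 in RNF213kd and -0.34 in WT cells. All 30 were higher in palmitate-treated RNF213kd than in palmitate-treated WT cells, whereas 4811 of all 10880 tested genes were lower. ARRDC4, an arrestin that limits glucose uptake, was the glycolysis list's most responsive member, at 1.72 in RNF213kd and 1.82 in WT cells. The limma test called 0 genes in these lists.

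**Figure D4:**
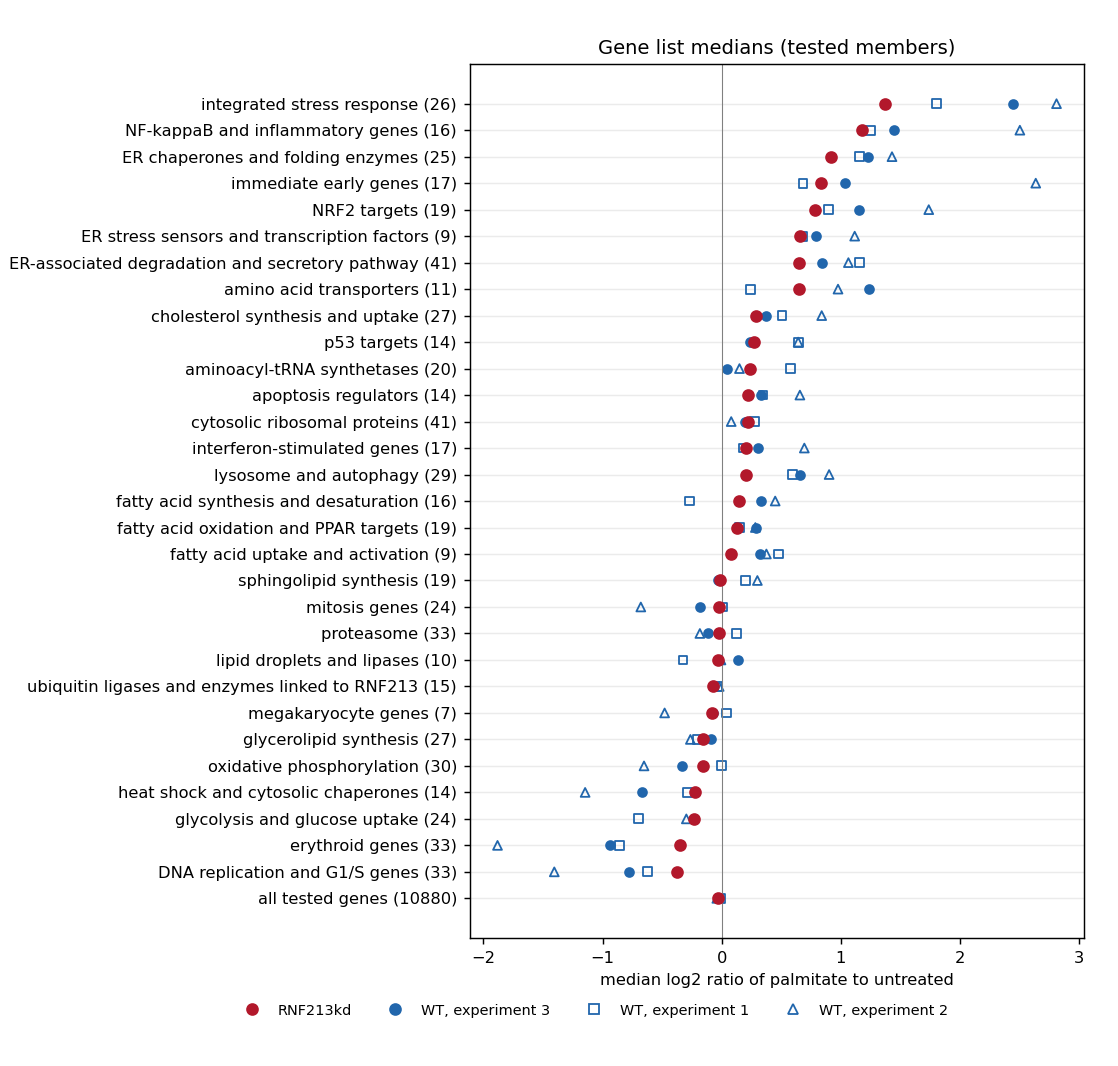
Median log2 ratio of palmitate to untreated over the tested members of each gene list (number in brackets), with RNF213kd as red circles and WT of experiments 1, 2 and 3 as open squares, open triangles and filled blue circles. The RNF213kd medians of the 9 lists at the top lie left of the WT medians of experiment 3, and those of the erythroid and DNA replication lists at the bottom lie right of all 3.

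Ranked by the difference between the RNF213kd ratio and the WT ratio of experiment 3, 123 genes (1.13%) were at least 2-fold smaller in RNF213kd cells and 28 (0.257%) at least 2-fold larger. In the underlying levels, untreated RNF213kd cells had 12 genes (0.11%) at least 2-fold above and 7 (0.0643%) at least 2-fold below untreated WT cells, and with palmitate 28 (0.257%) lay above and 59 (0.542%) below. The 10 most negative were DDIT4, G0S2, CHAC1, COL6A2, OLAH, ATF3, INHBE, IFI16, UPP1 and SPRR2D, with differences of -2.41 to -1.63. COL6A2, a collagen VI chain, had 1.20 FPKM with palmitate in RNF213kd cells against 5.87 FPKM in WT cells, and UPP1, uridine phosphorylase, 2.63 FPKM against 9.86 FPKM. For DDIT4 and CHAC1 the untreated levels differ by more than the palmitate levels; for the other 8 the palmitate level of RNF213kd cells is lower than that of WT cells by a log2 difference of 0.99 or more in size.

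Among the 10 most positive differences, from 1.69 to 1.25, were those of HBBP1, HEMGN, HIST1H3B, PMF1-BGLAP, S100A4, ZEB2-AS1, RHOXF2B, PKLR and PAGE2B. PKLR, the pyruvate kinase of liver and red cells, had 13.6 FPKM with palmitate and 22.9 FPKM without in RNF213kd cells, against 2.88 and 14.8 FPKM in WT cells. S100A4, a calcium-binding protein, had 4.63 and 5.68 FPKM in palmitate-treated and untreated RNF213kd cells, against 1.81 and 8.15 FPKM in WT cells. HBBP1 is a globin pseudogene, HIST1H3B, RHOXF2B and PAGE2B have near-identical copies, PMF1-BGLAP is a readthrough of 2 genes and ZEB2-AS1 lies antisense to ZEB2, so their values are uncertain.

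The largest ratios below 0 in RNF213kd cells, of which 0 passed the limma test, were those of FAM178B and HBBP1 (-1.49 each), RBP5 (-1.47), HBD (-1.31), FAM213B (-1.27), IFI30 (-1.26), OSBP2, MUC1 (-1.23), KLF1 (-1.22), FAM83D, LINGO1 and HEMGN (-1.15). FAM178B had 42.5 FPKM with palmitate and 122 FPKM without in RNF213kd cells, against 9.32 and 49.9 FPKM in WT cells. RBP5, a retinol-binding protein, had 1.70 and 6.48 FPKM in palmitate-treated and untreated RNF213kd cells, against 1.97 and 3.87 FPKM in WT cells, and is the only one of these 12 whose RNF213kd ratio lay below that of all 3 WT experiments.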

How the data were processed

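RNA of 3 biological replicates was pooled per library, made with a stranded mRNA kit and sequenced in paired ends, per the labels and the series' design text. The authors mapped reads to hg19 with TopHat2 and made FPKM with Cuffdiff, per the submitters' processing notes (versions not given in the sources used here), and deposited 1 table per experiment; 2 unlabelled libraries in the tables were not used. The p-value and q-value columns the authors deposited were not used, nor was their log2 fold change column. Ratios of log2(FPKM + 1) were formed within a table, so 3 WT ratios and 1 RNF213kd ratio entered limma 3.58.1 in R 4.3.3 (empirical Bayes, intensity trend, 2 residual and a median of 10.7 prior degrees of freedom, Benjamini-Hochberg threshold of 0.05, two-sided) for 10880 genes averaging 1 FPKM or more; 185 small RNA and SNAR genes were left out. A difference of ratios took the variance of 2 ratios. The spread between WT experiments served for both ratios. What RNF213kd and WT of experiment 3 share by standing in 1 table was not taken out. The intervals and limma p-values of a difference therefore do not measure the spread of that difference itself. Experiments pair the WT libraries: deviations from the group mean correlated at 0.36, 0.68 and 0.70 within an experiment and at -0.59 to 0.13 otherwise. The deviations of the 3 libraries of a group cancel out for each gene, so the negative values follow in part from this centring. GC content came from GRCh37 transcripts (96.5% of tested genes), and the trend was removed by lowess with a window of 0.3. Promoters came from RefSeq by symbol (80.5% of tested genes); the table is not complete. Members, lists and tests were chosen with earlier results of these data known. Named were RNF213 in every library, the 12 largest rises and falls, the 10 largest differences each way at 5 FPKM or more, the most responsive and most different members of described lists and a panel of 22 genes. Further list members were named after their values were seen. Some named genes are not reported here.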

Additional observations from a re-analysis of the deposited data

Results flagged for a closer look

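GYPB and HSPA8 stood out because their RNF213kd ratio was above 0 while all 3 WT ratios were below 0. GYPB had a ratio of 0.50 in RNF213kd cells (95% interval -0.42 to 1.42), against -0.41, -1.19 and -0.65 in WT cells of experiments 1, 2 and 3, and its difference from experiment 3 was 1.15 (-0.14 to 2.45, limma adjusted p = 1.00). HSPA8 had a ratio of 0.13 in RNF213kd cells (-0.66 to 0.92), against -0.42, -1.18 and -0.65 in WT cells, and its difference was 0.78 (-0.34 to 1.90, limma adjusted p = 1.00). The opposite sign to all 3 WT ratios occurred in 360 of all tested genes (3.31%).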

How the results depend on the processing

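With 1 library per side the test has little power, and the 9 rises depend on the settings: 16 genes rose without a filter on expression, 29 at a mean of at least 5 FPKM, 2 with ratios centred on their median, 3 with no intensity trend, 0 with the GC trend removed and 0 with no replicate block, that is with experiments unpaired. Leaving out 1 WT experiment gave 0 (experiment 3), 19 (experiment 1) and 57 (experiment 2). The genes called changed as well as their count. Of the 9, 0 were still called without the filter on expression, 1 with small RNA and SNAR genes kept and 6 with a pseudocount of 0.1. The count of genes that fell was 17 without the filter and 13 with small RNA and SNAR genes kept, which also gave 18 differences between RNF213kd and WT. Genes at least 2-fold higher numbered 460 with a pseudocount of 0.1; those at least 2-fold lower numbered 108 with that pseudocount, 22 at a mean of at least 5 FPKM, 78 with small RNA genes and 15 with the GC trend removed. The cause was not tested. Of the named genes the ratio of FASN alone reversed, to 0.037 with the GC trend removed. The difference between RNF213kd and WT had 0 calls in every other alternative, and 84 unadjusted against the mean of the 3 WT ratios. The medians of all lists moved, apart from the NF-kappaB list (2.20 with a pseudocount of 0.1), the list linked to RNF213 (0.0095 with the GC trend removed, -0.04 when centred) and the megakaryocyte list (0.30 at a mean of at least 5 FPKM, 0.24 with the GC trend removed), by less than the spread of the 3 WT medians. The alternative on the same genes as the GC removal, with the trend kept, and the removal from the untreated and palmitate differences were chosen after seeing the data. Read depth is unknown, so precision rests on the spread between WT experiments.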

Other observations

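Megakaryocyte genes, the other lineage that K562 cells can enter, were mostly too low to be tested: 7 of 15 listed were. ITGB3, an integrin chain of platelets, had 1.75 FPKM with palmitate and 0.342 FPKM without in RNF213kd cells, against 3.46 and 0.2498 FPKM in WT cells. Its ratio of 1.03 in RNF213kd cells lay below the WT ratios of 1.57, 3.61 and 1.84. ITGB3 stands against its list. Of the 7 tested members 5 had an RNF213kd ratio above all 3 WT ratios and 1 below, beside 17.2% and 17.4% of all tested genes. The list medians were -0.09 in RNF213kd and -0.07 in WT cells of experiment 3. RUNX1, a transcription factor of that lineage, had a ratio of 0.72 in RNF213kd cells and 0.46 in WT cells of experiment 3. SLC2A3, a glucose carrier, had a ratio of 0.84 in RNF213kd cells and 0.62 in WT cells.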
